A study of Mus musculus with 6 samples.

Results

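Voltage-gated sodium channel subunits were followed through 7 genes: the pore-forming alpha subunit genes Scn1a, Scn2a, Scn3a and Scn8a, and the auxiliary beta subunit genes Scn2b, Scn3b and Scn4b. Members were all probe sets that the platform annotation gives to one of these symbols alone, 20 of the 45037 on the array after array controls were left out. Of these, 16 reached a geometric mean intensity of 50 over all arrays and were tested, at least 1 for each gene, and 4 did not. The arrays carried messenger RNA bound to ribosomes in cortical cells of S100a10 bacTRAP mice (line ES691), in which the S100a10 control region on a bacterial artificial chromosome drives a tagged ribosomal protein. The tag lets ribosomes of those cells be pulled out with the RNA they translate (translating ribosome affinity purification, TRAP). All mice carried this transgene, on an FVB background crossed onto C57BL/6 over 3 to 5 generations. One group (3 arrays) drank fluoxetine, a serotonin reuptake inhibitor, at 0.167 mg/ml in 1% saccharine for 15 to 18 days, and the other (3 arrays) drank 1% saccharine alone for the same time. The labels call the 3 samples of a group biological replicates; the number of animals behind a sample, and their age, were not stated in the labels. The p-values therefore measure the spread between these samples, which may in part be technical.

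A voltage-gated sodium channel consists of one large alpha subunit, which holds the voltage sensors, the pore and the inactivation gate, and of smaller beta subunits, which cross the membrane once and carry an immunoglobulin-like domain outside the cell. The channels open as the membrane depolarizes and carry the rising phase of the action potential. In cortical pyramidal cells they are concentrated at the axon initial segment, where spikes start. Beta subunits shift the voltage dependence and kinetics of the pore, take part in its delivery to the membrane and act as cell adhesion molecules. The S100a10 product, p11, is itself known to bind a sodium channel alpha subunit of sensory neurons, the product of Scn10a.

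Scn2b and Scn4b lie next to each other, on the same strand, among the protein-coding genes of the RefSeq table for GRCm38.p6. The 250 bases before each start, as RefSeq places it, are shown because this neighbouring pair holds the beta subunit gene with the lowest value under fluoxetine relative to vehicle (Scn4b) and one whose brightest probe set hardly varied (Scn2b), with start regions of different composition. Capitals mark matches to any of 5 motifs, each searched on both strands. They were the TATA box, spelled TATAAA, the GC box, spelled GGGCGG, the CCAAT box, which is spelled as it is named, the cyclic AMP response element, spelled TGACGTCA, and the E-box, spelled CACGTG.
Scn2b, chr9:45117626-45117875, plus strand: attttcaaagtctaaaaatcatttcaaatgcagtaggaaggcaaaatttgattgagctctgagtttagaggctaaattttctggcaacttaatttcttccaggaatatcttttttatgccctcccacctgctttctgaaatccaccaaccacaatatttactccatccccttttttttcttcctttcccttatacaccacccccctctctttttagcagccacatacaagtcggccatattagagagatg
Scn4b, chr9:45138374-45138623, plus strand: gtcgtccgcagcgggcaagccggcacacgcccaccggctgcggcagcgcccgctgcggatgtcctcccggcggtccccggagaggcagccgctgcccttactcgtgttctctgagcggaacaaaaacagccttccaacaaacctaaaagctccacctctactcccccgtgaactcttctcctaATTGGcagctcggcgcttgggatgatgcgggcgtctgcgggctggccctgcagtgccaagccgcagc
The Scn2b stretch was 38.4% G and C with 1 CpG, and the Scn4b stretch 66.0% with 23 CpG, against a median of 52.4% and 6 CpG over 32851 RefSeq promoters cut to the same length. None of the 5 motifs occurred in the Scn2b stretch, and the Scn4b stretch held 1 CCAAT box, read on the minus strand. Of all promoters, 33.8% held a CCAAT box, 32.7% a GC box, 12.4% a TATA box, 6.02% an E-box and 1.55% a cyclic AMP response element. These are matches of letters in a short window, with no measurement of factor binding behind them. Of the 7 genes, 5 had an entry in the promoter table.

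The arrays had like medians over all probe sets, between 47.3 and 48.6, and upper quartiles between 498 and 574. Over the tested probe sets they were less alike. The median deviation from the mean of the 6 arrays ran from −0.058 on fluoxetine 2 to 0.086 on vehicle 2 (log2). Fluoxetine 1 and vehicle 2 stood furthest out for the alpha subunits. Differences of the alpha subunits, of Scn4b and of the binding partners Fgf14, Fgf13, Ank3 and Trim46 are given with and without those arrays. For the 5 beta probe sets fluoxetine 2 stood furthest out, with a median deviation of −0.34. The log2 ratio of the 3' to the 5' control probe set, a measure of RNA integrity and of amplification length, was 2.35 to 2.67 for Gapdh and 3.02 to 3.26 for beta-actin on the fluoxetine arrays, and 2.45 to 2.63 and 3.00 to 3.38 on the vehicle arrays. Vehicle 2 had the highest ratio of the 6 arrays for beta-actin, the transferrin receptor (1.47) and pyruvate carboxylase (4.15), and the second highest for Gapdh. Signal was low for some of these controls. The transferrin receptor probe sets averaged 4.08 (3') and 2.93 (5') in log2 and the 5' pyruvate carboxylase set 4.66. All lay below 5.64, the log2 of an intensity of 50. Defining markers of excitatory neurons with a probe set of their own (Slc17a7, Neurod2, Neurod6 and Camk2a) all lay above the intensity level of 50, as did the layer 5 markers Bcl11b, Fezf2, Crym and Pcp4. All 8 inhibitory neuron markers lay above it too, and the submitters state that the line labels some non-neuronal cells. In such pooled RNA, fewer cells of a type and less RNA per cell cannot be told apart.

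The comparison addresses the effect of chronic fluoxetine on the RNA translated in these cells. No sodium channel probe set passed the test: all 16 had an adjusted p of 0.999 (limma, Benjamini-Hochberg over the 22326 tested probe sets), and 0% of all tested probe sets passed. At an unadjusted p under 0.05 there was 1 of 16, for Scn4b, where 1.78% of all tested probe sets reached that in the lower and 0.739% in the higher direction. In sign, 15 of 16 measured lower with fluoxetine, among them all 11 of the alpha subunits, where 66.3% of all tested probe sets measured lower. The median difference was −0.29 on the log2 scale over the 11 alpha probe sets, −0.03 over the 5 beta probe sets and −0.06 over all tested probe sets. These shares depend on the scaling. Over all tested probe sets the 398 lower and 165 higher at an unadjusted p under 0.05 became 209 lower and 267 higher when arrays were quantile-normalized, and 170 lower and 327 higher when they were shifted to a common median. No member reached that p under either scaling. After quantile normalization 13 of the 16 and all 11 alpha probe sets were below 0, with 50.2% of all tested probe sets, and after shifting arrays to a common median the counts were the same, with 49.2% of all. Without both fluoxetine 1 and vehicle 2, 12 of 16 and 8 of the 11 alpha probe sets were below 0, with 60.7% of all, and the median of all 16 was −0.08. The count at an unadjusted p under 0.05 (limma) was 4 of 16 without fluoxetine 3, 2 without vehicle 2 and 2 without vehicle 3. It was 1 without fluoxetine 2, 0 without fluoxetine 1 or without vehicle 1, and 3 with no filter on intensity. In simulated arrays with the spread of these, the test recovered 70.1% of differences of 1 in log2 and 2.09% of differences of 0.5, so differences of the size seen here were mostly not detectable.

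**Figure D1:**
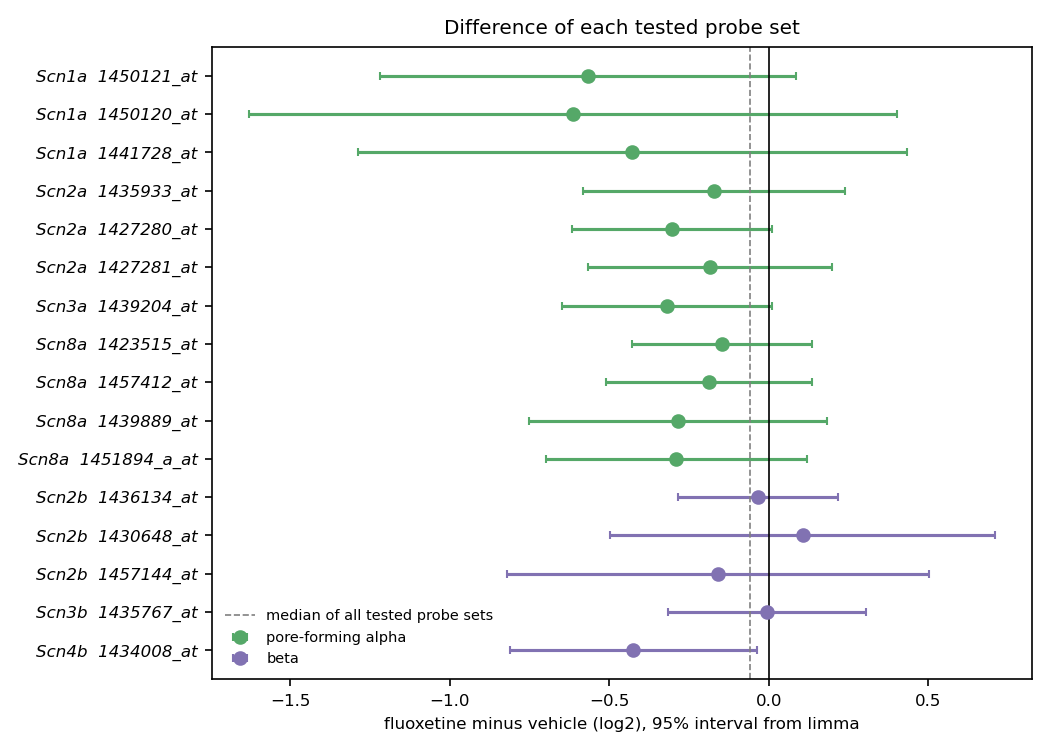
Difference between fluoxetine and vehicle (log2 intensity, x axis) for each of the 16 tested probe sets (y axis), with its 95% interval from limma; n = 3 arrays a group. All 11 alpha probe sets lie left of 0 and only the interval of Scn4b leaves 0 out, from −0.81 to −0.04, before adjustment for multiple tests.

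Scn1a encodes Nav1.1, an alpha subunit known for its role in fast-spiking inhibitory neurons and for epilepsy when it is lost. Its brightest probe set (1450121_at) measured 10.47, 11.47 and 11.37 on fluoxetine arrays 1, 2 and 3 and 11.72, 11.88 and 11.41 on vehicle arrays 1, 2 and 3, in log2 intensity. The groups overlapped by a narrow margin, and fluoxetine 1 stood far below the other 5 arrays. The difference was −0.57 ± 0.28 (SE; limma adjusted p = 0.999), a fold of 0.675 with a 95% interval of 0.430 to 1.06.

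The second Scn1a probe set (1450120_at) measured 8.46, 9.42 and 10.24 with fluoxetine and 10.03, 10.35 and 9.58 with vehicle. It is drawn from the same source sequence as the first, so the pair is not independent. The third (1441728_at), from another source sequence, measured 7.33, 8.35 and 8.86 against 8.49, 8.89 and 8.46. Their differences were −0.61 ± 0.43 and −0.43 ± 0.37 (SE). All 3 were lowest on fluoxetine 1, at −0.92, −1.22 and −1.06 from the mean of the 6 arrays. A value 0.9 or more below that mean is one that 1.39% of all tested probe sets reached on that array. Without fluoxetine 1 the 3 differences were −0.25, −0.16 and −0.002, so most of the Scn1a difference came from that array.

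Scn2a encodes Nav1.2, an alpha subunit of excitatory neurons that is found along young axons and in the near part of the initial segment. Its brightest probe set (1435933_at) measured 12.34, 12.55 and 12.69 with fluoxetine and 12.79, 12.92 and 12.38 with vehicle. Vehicle 3 lay among the fluoxetine arrays, and the difference was −0.17 ± 0.18 (SE), a fold of 0.889 (95% interval 0.668 to 1.18). The next probe set (1427280_at) measured 10.18, 10.29 and 10.46 against 10.63, 10.75 and 10.46, where the groups touched at fluoxetine 3 and vehicle 3. Its difference was −0.30 ± 0.13, with an unadjusted p of 0.0552 in limma's test. A further probe set from the same source sequence (1427281_at) measured 6.93, 7.20 and 6.85 against 7.28, 7.34 and 6.91, a difference of −0.18 ± 0.16. The fourth (1445259_at) was below the intensity level, at 31.1 with fluoxetine and 35.0 with vehicle (geometric mean intensity), and was not tested. Without fluoxetine 1 and vehicle 2 the brightest probe set differed by 0.04, the next by −0.17 and 1427281_at by −0.07. The brightest differed by −0.06 without vehicle 2 alone and by −0.33 without vehicle 3, and 1427281_at by −0.10 and −0.32.

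Scn3a, whose product Nav1.3 is best known from the embryonic brain, had 1 tested probe set (1439204_at). It measured 7.51, 7.52 and 7.62 with fluoxetine and 7.97, 8.02 and 7.62 with vehicle. The fluoxetine arrays were close together, and vehicle 3 matched the highest of them. The difference was −0.32 ± 0.14 (SE; unadjusted p = 0.0565, limma), a fold of 0.802 (95% interval 0.638 to 1.01), and without both fluoxetine 1 and vehicle 2 it was −0.22. The other probe set (1421705_at) lay near the bottom of the scale at 6.80 and 6.98 in geometric mean intensity and was not tested.

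Scn8a encodes Nav1.6, the main alpha subunit of the far initial segment and of nodes of Ranvier in mature neurons. The brightest of its 5 probe sets (1423515_at) measured 10.94, 10.88 and 11.09 with fluoxetine and 11.10, 11.24 and 11.01 with vehicle. The groups overlapped, with a difference of −0.15 ± 0.12 (SE) and a 95% interval of the fold of 0.743 to 1.10. The second (1457412_at) measured 10.15, 10.05 and 10.20 against 10.26, 10.55 and 10.15, a difference of −0.19 ± 0.14 in which vehicle 2 was the highest array. The remaining 2 tested probe sets, 1439889_at and 1451894_a_at, differed by −0.28 ± 0.20 and −0.29 ± 0.17. Single arrays moved these values by more than 1.5 times. The brightest differed by −0.09 without vehicle 2, the second by −0.07 without vehicle 2, 1439889_at by −0.14 without fluoxetine 1 and −0.46 without fluoxetine 3, and 1451894_a_at by −0.12 without vehicle 1 and −0.44 without vehicle 2. Without both fluoxetine 1 and vehicle 2 the 4 differences, in the same order, were −0.07, −0.08, −0.13 and −0.45. The last (1442208_at) read 4.35 with fluoxetine and 4.11 with vehicle in geometric mean intensity, too low to carry information.

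**Figure D2:**
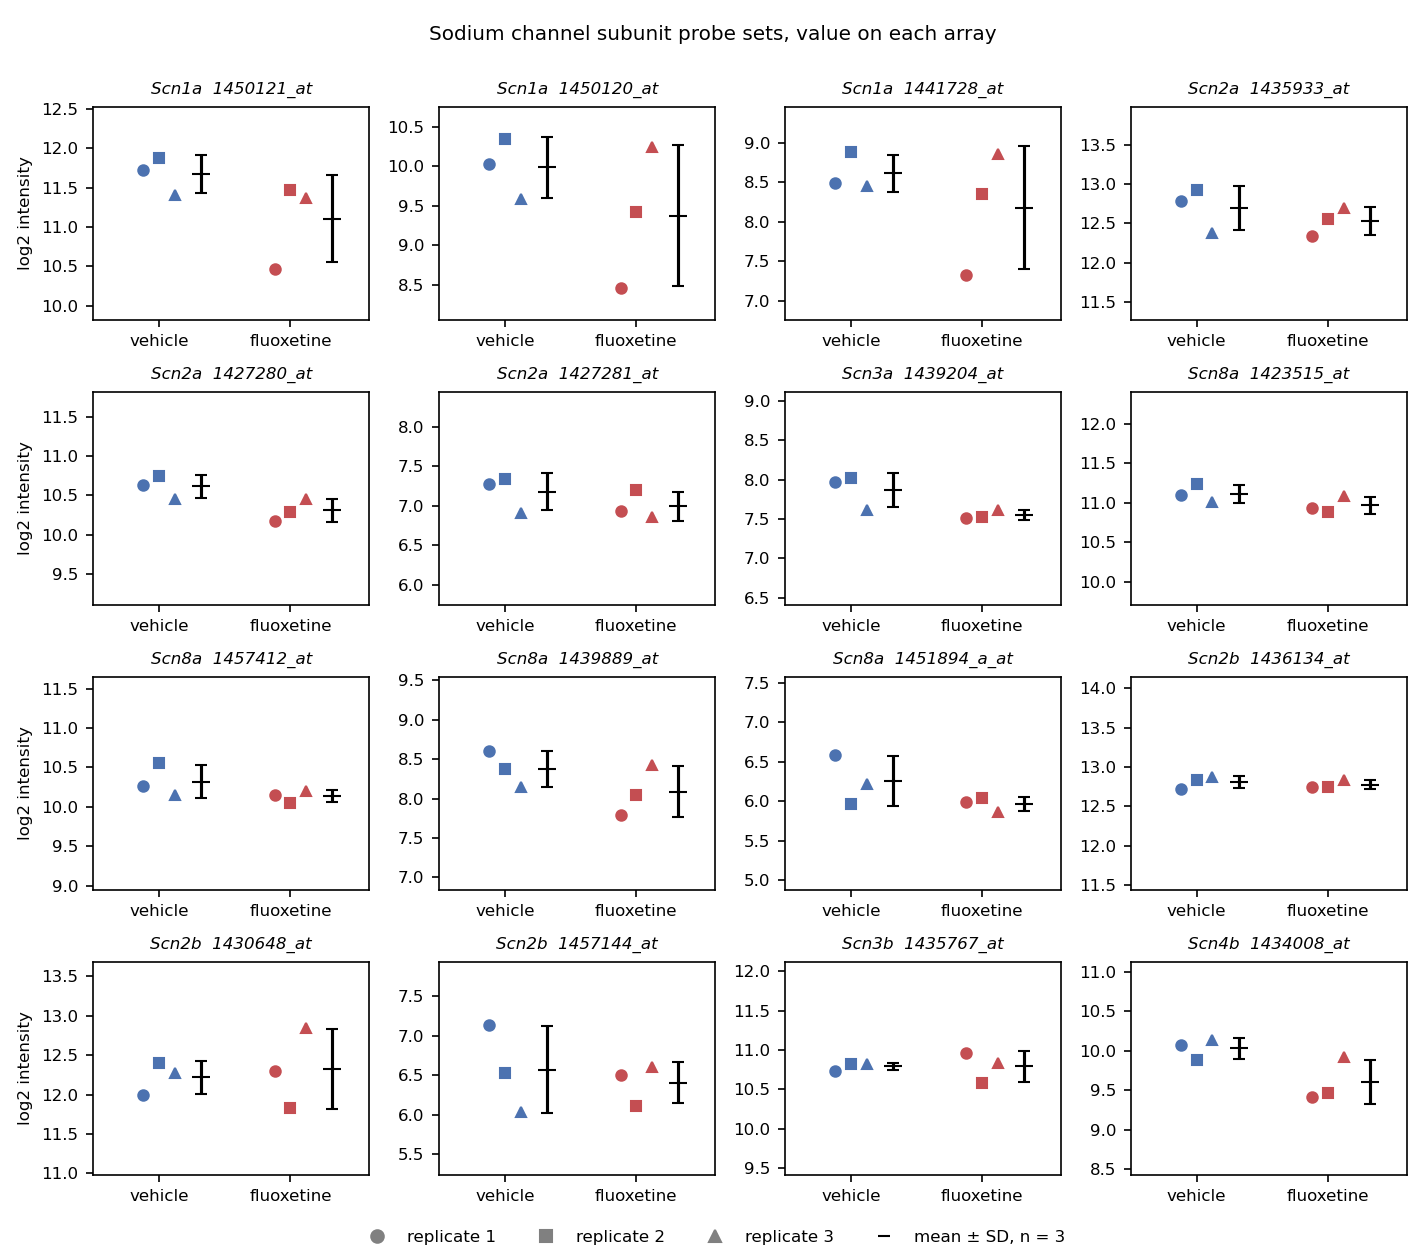
Value of each of the 16 tested probe sets on each array (log2 intensity, y axes spanning the same number of log2 units) by group (x axis); symbols mark the replicate number and black bars the mean ± SD of 3 arrays. Scn1a on fluoxetine 1 lies apart on all 3 probe sets, whereas the brightest Scn2b probe set stays between 12.72 and 12.87 on all 6 arrays.

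Among the beta subunits, Scn4b had the lowest value with fluoxetine relative to vehicle. Its product, beta 4, is linked to the alpha subunit by a disulfide bond, and its tail inside the cell is known to block the open pore and so to give resurgent sodium current. The single Scn4b probe set (1434008_at) measured 9.42, 9.47 and 9.92 with fluoxetine and 10.07, 9.88 and 10.14 with vehicle. Fluoxetine 1 and 2 lay below every vehicle array, while fluoxetine 3 lay just above vehicle 2, so the groups overlapped. The difference was −0.42 ± 0.16 (SE; unadjusted p = 0.0354 and adjusted p = 0.999, limma), a fold of 0.745 with a 95% interval of 0.570 to 0.974. Of all tested probe sets, 3.08% were lower by 0.4 or more, a share that was 7.04% without vehicle 3, 6.38% without fluoxetine 3 and 5.41% without fluoxetine 2. The difference stayed below 0 in all settings tried, at −0.35 after quantile normalization, between −0.58 and −0.33 when single arrays were left out, and at −0.41 without both fluoxetine 1 and vehicle 2. The unadjusted p did not stay under 0.05: it was 0.0846 with quantile-normalized arrays, 0.0745 with arrays shifted to a common median and 0.0801 with array weights (limma). It also went above 0.05 in 4 of the 6 fits that left out a single array, at 0.104 without fluoxetine 1, 0.101 without fluoxetine 2, 0.0904 without vehicle 1 and 0.101 without vehicle 3, and was 0.0915 without both fluoxetine 1 and vehicle 2. Without fluoxetine 3 it was 0.00537 and without vehicle 2 it was 0.0379. With a single probe set, no second measurement of this gene is at hand.

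Scn2b, the neighbour of Scn4b, encodes beta 2, which is also bound to the alpha subunit by a disulfide bond. Its brightest probe set (1436134_at) measured 12.75, 12.74 and 12.84 with fluoxetine and 12.72, 12.83 and 12.87 with vehicle. The 6 values had an SD of 0.061, where the median SD of all tested probe sets was 0.191, and the difference was −0.03 ± 0.11 (SE) with a 95% interval of the fold of 0.822 to 1.16. A second bright probe set (1430648_at) scattered far more, at 12.30, 11.83 and 12.84 against 11.99, 12.40 and 12.27, and differed by 0.11 ± 0.26. The third (1457144_at), nearer the intensity level, measured 6.50, 6.11 and 6.61 against 7.14, 6.53 and 6.04 and differed by −0.16 ± 0.28. The Scn2b probe sets thus disagreed in sign, and that of the brightest turned to 0.04 with quantile-normalized arrays and to 0.03 with arrays shifted to a common median.

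Scn3b encodes beta 3, which binds the alpha subunit without a covalent bond. Its tested probe set (1435767_at) measured 10.96, 10.58 and 10.84 with fluoxetine and 10.74, 10.82 and 10.82 with vehicle. The vehicle values were almost identical and lay inside the fluoxetine range; the difference was −0.005 ± 0.13 (SE), with a 95% interval of the fold of 0.804 to 1.24. The other probe set (1426328_a_at) was below the intensity level at 33.7 and 30.3. Whether Scn4b differed from Scn2b or Scn3b in its response was not tested.

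**Figure D3:**
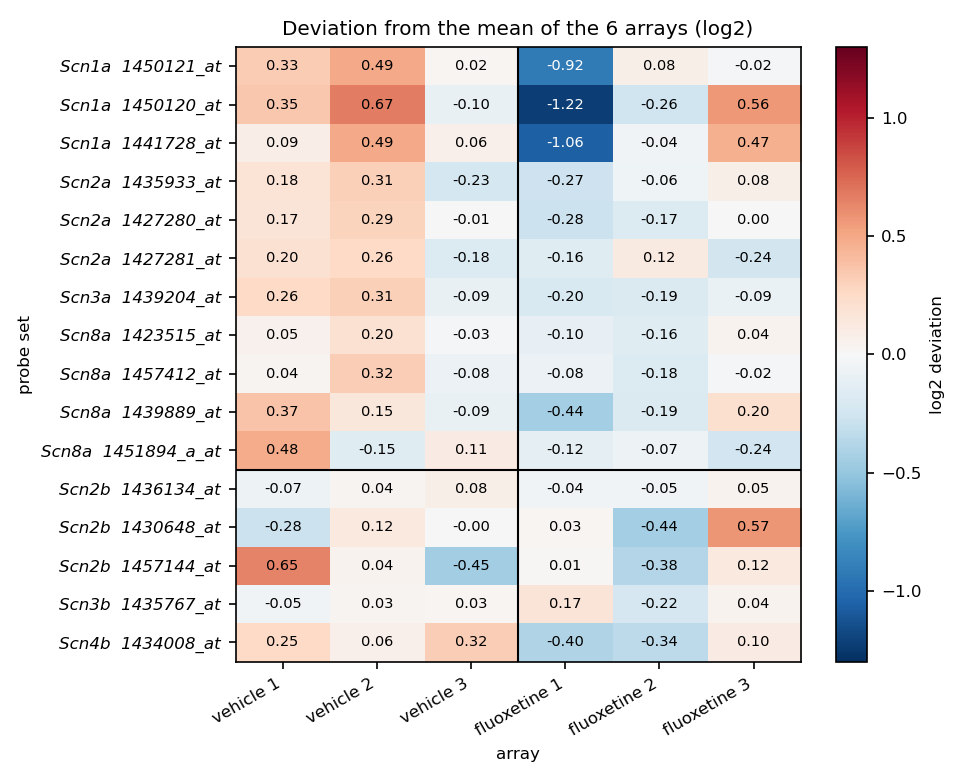
Deviation of each tested probe set (rows) on each array (columns) from its mean over the 6 arrays, in log2; blue is below and red above that mean, and lines part vehicle from fluoxetine and alpha from beta subunits. All 11 alpha probe sets lie below their mean on fluoxetine 1, where 7 have their lowest value. All but Scn8a 1451894_a_at (−0.15) lie above it on vehicle 2. The deepest value is −1.22 for Scn1a.

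Across arrays, the 11 probe sets of the 4 alpha genes shared a pattern, part of which other genes had too. All 11 alpha probe sets lay below their 6-array mean on fluoxetine 1, with a median deviation of −0.27, and 7 of them had their lowest value there, against 18.5% of all tested probe sets. On vehicle 2, 9 of the 11 had their highest value, against 30.1% of all tested probe sets, with a median deviation of 0.31. Probe sets of 1 gene are not independent, and every Scn1a probe set was lowest on fluoxetine 1 and highest on vehicle 2. The 5 other tested sodium and leak channel genes had median deviations of −0.13 on fluoxetine 1 and 0.28 on vehicle 2, with 3 highest there. Of the 27 binding partner and initial segment genes, 12 were highest on vehicle 2 and 6 lowest on fluoxetine 1. Vehicle 2 was also the array with the highest 3' to 5' ratio in 3 of the 4 control genes, beta-actin at 3.38 among them. The other ratios, of the transferrin receptor and pyruvate carboxylase, rest at least in part on values below the intensity level. The part of RNA quality in the result was not tested. Vehicle 3 was different from the other vehicle arrays: 8 of the 11 lay below their mean there, with a median of −0.08, close to the 0.00 of fluoxetine 3 and the −0.16 of fluoxetine 2. The brightest probe sets of the 4 alpha genes correlated with each other at 0.62 to 0.87 over the 6 arrays, given as a description of arrays that also share their group and normalization. With Scn2b the same 4 correlated at 0.02 to 0.42, with Scn3b at −0.55 to 0.28 and with Scn4b at 0.37 to 0.62.

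Genes whose values followed a subunit most closely over the 6 arrays were sought among 19682 to 19684 named probe sets for the 4 genes whose spread reached the median spread. For Scn1a they were Pisd-ps3, Supt20 and Rnf144b (Pearson r of 0.998, 0.994 and 0.993), for Scn2a Septin7, Homer1 and Rasa2 (0.998, 0.997 and 0.996), for Scn3a Uba7, Pcdh10 and Lmo3 (0.999, 0.994 and 0.994), and for Scn4b Frmd6, Ephb3 and Tut1 (0.979, 0.977 and 0.969). With 6 points such values are common: 303 probe sets exceeded 0.95 with Scn2a, 120 with Scn1a, 63 with Scn3a and 19 with Scn4b. Scn8a, Scn2b and Scn3b varied less than the median probe set and were not compared.

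Among the other sodium channel genes, Scn10a and Scn9a lay below the intensity level. Of the sodium leak channel genes, Nalcn, Fam155a and Unc80 were well above it and Unc79 was far below it. Scn10a, the gene of the p11-binding channel, read 2.86 ± 0.09 with fluoxetine and 2.95 ± 0.31 with vehicle (log2, mean ± SD of 3 arrays a group), far below the level of 5.64 that corresponds to an intensity of 50. Scn9a, another channel of sensory neurons, was below it too (3.83 ± 0.49 against 4.40 ± 0.55 for its brightest probe set). Of the 5 tested genes, none passed limma's test, 4 measured lower and 1 higher, with a median of −0.09. Nalcn, the pore of the sodium leak channel that sets resting excitability, measured 11.81 and 11.91 (log2 group means) and differed by −0.09 ± 0.13 (SE). Fam155a and Unc80, which belong to the same complex, differed by −0.15 ± 0.15 and −0.29 ± 0.47. Unc79, listed with them, read 1.87 with fluoxetine and 1.83 with vehicle (log2 group means) and was not tested. Unc80 was lowest on fluoxetine 1 and highest on vehicle 2 (10.70), and its difference was 0.42 without those arrays, while that of Fam155a was 0.03. Scn11a, a further channel of sensory neurons, lay just above the intensity level at 6.33 ± 0.07 against 6.31 ± 0.08 (SD) and differed by 0.03 ± 0.11 (SE). Scn7a, the sodium-sensing relative of these channels, differed by −0.04 ± 0.24.

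Of the channels' binding partners and the other proteins of the axon initial segment, 27 genes were tested, 21 measuring lower and 6 higher with a median of −0.09, and none passed limma's test. The smallest p-values belonged to Fgf14 and Fgf13, fibroblast growth factor homologues that bind the tail of the alpha subunit, Ank3, whose product ankyrin-G anchors the channels, and Trim46, which organizes microtubules of the initial segment. Fgf14 measured 10.25, 10.59 and 10.65 with fluoxetine and 10.95, 10.71 and 10.65 with vehicle, a difference of −0.27 ± 0.15 (SE), with fluoxetine 3 and vehicle 3 equal to 2 decimals. Ank3 differed by −0.31 ± 0.21, its 4 tested probe sets all measuring lower, Fgf13 by −0.23 ± 0.16 and Trim46 by −0.20 ± 0.14. Ank3 was lowest on fluoxetine 1 and highest on vehicle 2, and without those arrays its difference was −0.01, that of Fgf14 −0.18, that of Fgf13 −0.04 and that of Trim46 −0.26. Groups did not overlap for Fgf14, Trim46 and, in the other direction, Sptbn4 (0.12 ± 0.10), the spectrin of the initial segment, where 5.23% of all tested probe sets did not overlap in the lower and 2.83% in the higher direction. S100a10 itself differed by −0.07 ± 0.11. Of the sodium pump subunits and sodium-calcium exchangers, 6 were tested, 2 measuring lower and 4 higher (median 0.05), and none passed. The pump subunit gene Atp1b2 differed by 0.11 ± 0.15 (SE), Atp1b3 by 0.08 ± 0.13 and the exchanger genes Slc8a3 and Slc8a1 by −0.18 ± 0.19 and 0.16 ± 0.32.

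Markers of other cell types were set beside these values because Scn1a and Scn4b are also used by inhibitory neurons. Of the 8 inhibitory neuron markers, 6 measured lower and 2 higher with a median of −0.22, and their summed intensity ran from 18920 to 24304 on the fluoxetine and from 21741 to 22054 on the vehicle arrays. None passed limma's test after adjustment, and 1, Vip, had an unadjusted p under 0.05. Of all tested probe sets, 1.78% reached that p in the lower direction. Vip, a neuropeptide of one class of inhibitory neurons, measured 9.63, 9.71 and 9.74 with fluoxetine against 10.10, 10.09 and 10.06, all 3 fluoxetine arrays below all vehicle arrays. Its difference was −0.39 ± 0.10 (SE; unadjusted p = 0.00632 and adjusted p = 0.999, limma). Groups did not overlap in the lower direction for 5.23% of all tested probe sets. Kcnc1, a potassium channel gene of fast-spiking cells, differed by −0.30 ± 0.16, with all 3 of its tested probe sets lower. Pvalb, the marker of fast-spiking cells, measured 8.74, 8.89 and 8.52 with fluoxetine and 8.90, 8.76 and 9.45 with vehicle. Lhx6, a transcription factor of the same lineage, measured 7.67, 8.57 and 8.98 against 8.52, 8.48 and 9.24, lowest on fluoxetine 1. The lowest value fell on that array for 3 of the 8 inhibitory, 4 of the 7 layer 5 and 4 of the 5 tested vessel markers. It fell there for 1 of the 4 excitatory neuron and 1 of the 3 tested microglia markers. No tested astrocyte, oligodendrocyte or precursor marker had its lowest value there. Over all tested probe sets the share was 18.5%. Gad1, the main enzyme of GABA synthesis, differed by 0.01 ± 0.14 (SE). The 6 astrocyte markers summed to 31444 to 44318 against 32801 to 38426, with 4 higher. Their median deviation was 0.61, −0.63 and 0.25 on fluoxetine 1, 2 and 3 and between −0.13 and −0.03 on the vehicle arrays, so the fluoxetine arrays spread in both directions. Gfap, the filament gene of reactive astrocytes, had values of 12.13, 4.49 and 9.02 under fluoxetine against 4.70, 5.24 and 5.67. Its values on fluoxetine 2, vehicle 1 and vehicle 2, and its vehicle mean, lay below the intensity level (5.64 in log2). It was tested because its mean over all arrays reached that level, and it is 1 of the 4 astrocyte markers counted as higher. The size of its difference therefore rests on fluoxetine 1 and 3 and on a vehicle group near the floor. Fluoxetine 2 was also low for oligodendrocyte markers (median deviation −0.55) and precursor markers (−0.84). The 4 tested oligodendrocyte markers all measured lower (sums 13238 to 21809 against 19976 to 21566), and the 7 layer 5 markers split into 5 lower and 2 higher (sums 48855 to 62194 against 54899 to 57318). The 4 excitatory neuron markers split evenly (sums 8263 to 9548 against 8693 to 9656). Of the remaining lists, the 3 tested precursor markers (sums 1879 to 4834 against 2240 to 2634) and the 3 tested microglia markers (1063 to 1657 against 1101 to 1339) had 1 and 0 lower. The 5 tested vessel markers (4743 to 6490 against 6223 to 9862) had 4 lower, with a median of −0.225. Among them Vtn differed by −0.41 ± 0.15 (SE; unadjusted p = 0.0298 and adjusted p = 0.999, limma), with groups that did not overlap. The shares of all tested probe sets given beside Vip, 1.78% and 5.23%, hold here too. Listed genes below the intensity level (Mog, Olig2, Aif1, P2ry12 and Pecam1) are included in the sums of their lists. The sums add linear intensities of different probe sets, so bright ones weigh most. Pcp4, at 15.49 and 15.51 (log2 means with fluoxetine and vehicle), made up most of the layer 5 sum. Gad1 (13.79 and 13.78) and Gja1 (14.51 and 14.66) did so for the inhibitory and astrocyte sums. The sums are therefore no measure of the level of a cell type. The part of these cell types in the sodium channel values was not tested.

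**Figure D4:**
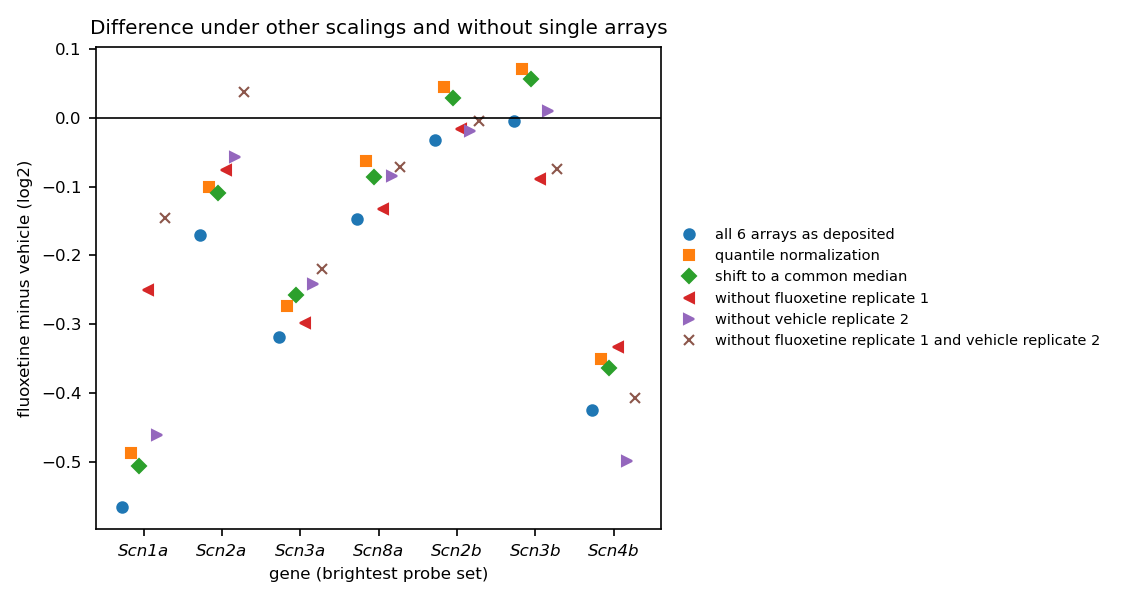
Difference between fluoxetine and vehicle (log2, y axis) of the brightest probe set of each gene (x axis) with all 6 arrays, under 2 other scalings and with 1 or 2 arrays left out. Scn4b stays between −0.50 and −0.33 in the settings drawn and Scn3a between −0.32 and −0.22, while Scn1a moves from −0.57 to −0.15 and Scn2b and Scn3b lie on both sides of 0.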

How the data were processed

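RNA from TRAP samples (15 ng each, 2 rounds of amplification per the labels' protocols) was hybridised to single-colour Affymetrix arrays. Each deposited value is a linear intensity (1.74 to 99076 over the table) that the authors normalized with GCRMA, as the submitters' processing notes name it without a version. GCRMA evens out array distributions and squeezes low values, leaves no read depth, and gives each probe set its own affinity, so levels were not compared between probe sets.

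Gene names came from the platform annotation (34945 probe sets with 1 symbol, 932 with several, 9160 with none). The log2 of each value was used, with no offset added. Probe sets with a geometric mean of at least 50 were tested (22326, 49.6%) with limma 3.58.1 in R 4.3.3 (lmFit, eBayes, two-sided, no block) and Benjamini-Hochberg adjustment over them (threshold 0.05). Intervals are 95% from that fit. A gene with several probe sets is represented in lists by its brightest. From each list up to 4 genes were named by smallest p, and Scn10a, Scn9a and S100a10 were always named. Scn7a, Unc79, Sptbn4, the cell type markers given with values and Unc80's single arrays were picked after their values were seen. Members and lists were chosen with earlier results of these data known. The fit was tested on 10 simulated data sets with 200 changed probe sets (6.26% of calls false). Same-numbered arrays did not pair: their deviations correlated at −0.25, −0.03 and −0.50. The number of arrays limits precision. Alternatives are in the closing section.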

Additional observations from a re-analysis of the deposited data

How the results depend on the processing

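No sodium channel probe set and no probe set at all passed limma's test (adjusted p under 0.05) in any of the 12 other settings of filter, offset, scaling, variance, weights, block or probe set choice, at a threshold of 0.10, or with arrays left out; at an unadjusted p under 0.05, 563 of 22326 passed in the main analysis. With a replicate block the counts were 0 and 0 and the median over the 7 genes stayed at −0.17; the block changed no call. That median was −0.10 after quantile normalization, −0.11 after the median shift and −0.23 when the probe sets of each gene were averaged, and ran from −0.33 (without vehicle 3) to −0.085 (without vehicle 2) when single arrays were left out. Without both fluoxetine 1 and vehicle 2, an alternative chosen after seeing the data, it was −0.075, and 3 signs turned: Scn1a 1450120_at to 0.025 and 1441728_at to 0.135, and Scn2a 1435933_at to 0.038; with single arrays left out these ran from −1.048 to −0.155, −0.768 to −0.002 and −0.329 to −0.057. Scn2b 1436134_at turned to 0.045, 0.029 and 0.000 and Scn3b 1435767_at to 0.071, 0.056 and 0.013 after quantile normalization, the median shift and array weights. With single arrays left out, Scn2b 1430648_at ran from −0.153 to 0.352, Scn2b 1457144_at from −0.425 to 0.124 and Scn3b 1435767_at from −0.089 to 0.104. The cause of these turns was not tested. Low signal limits the 4 probe sets below the intensity level.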
